A study of Mus musculus with 2 samples.

Results

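Genes of glucose uptake, glycolysis and the response to low oxygen, 10 in all, were followed in single cells sorted from the mouse retina. They were chosen by name (Slc2a1, Slc2a3, Hk2, Pfkfb3, Aldoa, Gapdh, Pkm, Ldha, Hif1a and Bnip3), and all 10 were found among the 31053 genes of both count tables. One library was labelled as an Igfbpl1 knockout and the other as wildtype, and both came from C57BL/6 mice aged 8 to 10 months. Igfbpl1 is named for its likeness to binding proteins of insulin-like growth factors, and the labels give neither the altered allele nor its deleted part. The mice in the design text were 10 knockout and, matched by sex, 10 wildtype animals, but the number of mice behind each library is not given. Per the labels' protocols, perfused retinas were digested for 1 h at 37 °C in collagenase/dispase, papain and DNase, and cells carrying CD45, a surface protein of leukocytes and microglia, were sorted. Other arms named in the design text were not analysed here.

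Cells take up glucose through transporters of the Slc2a family and trap it by phosphorylation with a hexokinase. Aldolase, glyceraldehyde-3-phosphate dehydrogenase and pyruvate kinase then carry it through glycolysis to pyruvate, which lactate dehydrogenase can turn into lactate. When oxygen is low, the factor HIF-1, whose oxygen-regulated subunit is encoded by Hif1a, is stabilised as a protein and raises transcription of transporters, glycolytic enzymes and mitophagy genes such as Bnip3. In the retina, photoreceptors and Müller glia are known for a high rate of glycolysis, and microglia, the resident macrophages, are known to turn to glycolysis when activated.

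The members were grouped by role. Slc2a1 (GLUT1) and Slc2a3 (GLUT3) are glucose transporters, Hk2 is a hexokinase, Pfkfb3 makes the activator of phosphofructokinase, Ldha is the lactate dehydrogenase A subunit and Bnip3 is a mitophagy receptor; these 6 were taken as hypoxia-induced. Aldoa, Gapdh and Pkm were taken as constitutive enzymes, although hypoxia is known to raise them too, by less. Hif1a was kept apart.

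HIF-1 is known to bind the letters ACGTG. The places that hold them are shown because the members are split here by whether hypoxia is known to induce them. In the 250 bases before the most 5′ RefSeq start of each gene (build GRCm38.p6), ACGTG on either strand was present in 5 of the 5 hypoxia-induced members with a window and in 0 of the 3 constitutive enzymes. The same window held the motif in 16.5% of 27026 genes. When every start of a gene was searched, 2 of the 3 constitutive enzymes also held it. Of 32851 single windows 16.6% held it, and the share of genes over every start was not counted. Hif1a also held the motif in its most 5′ window. For Ldha and Hif1a, the bases after the start used matched no annotated transcript of the gene. Another Ldha start did match one, and its window held 0 motifs. Ldha held it at 3 places and Hif1a at 2, of which the first is shown. The capitals mark the motif on either strand, and CACGTG reads as ACGTG on both strands. A match is a description and not a binding site. The places shown for Slc2a1 and Pfkfb3 overlap an annotated exon of their gene, and the others do not.
Slc2a1, chr4:119108699-119108723, plus strand: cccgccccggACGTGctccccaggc
Hk2, chr6:82774666-82774690, minus strand: ccacggaacaCACGTcccaactctg
Hk2, chr6:82774492-82774516, minus strand: tgagcacatcCACGTcactgtccgg
Pfkfb3, chr2:11553975-11553999, minus strand: ccgcgccgtgACGTGccaagctgtg
Ldha, chr7:46845649-46845674, plus strand: tgtcgcagcaCACGTGgagccactct
Hif1a, chr12:73907722-73907747, plus strand: cacagacaagCACGTGagcggggcag
Bnip3, chr7:138909599-138909624, minus strand: gcacgcgccgCACGTGccacacgctc

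Both libraries were read by unique molecular identifiers (UMIs), so a count is a captured molecule and does not grow with gene length. The library labelled knockout held 1785 barcodes and 7945713 UMIs, and the library labelled wildtype 2735 barcodes and 11020717 UMIs. Filtering left 1761 and 2695 cells with medians of 4286 and 3910.0 UMIs. Igfbpl1 went against the labels, with 29 counts in the library labelled knockout and 2 in the library labelled wildtype, so the groups are called by their labels throughout. The libraries shared 1 cell barcode. There was 1 library per group, so the data allow no test and neither p-values nor standard errors are printed. Intervals are 95% and cover counting error only. They say nothing about the spread between mice.

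Cells were gated on summed counts of marker genes. Microglia (gate genes including P2ry12, Tmem119, Gpr34, Siglech and Cx3cr1) numbered 1544 in the library labelled knockout, 87.7% of its cells, and 2464 in the library labelled wildtype, 91.4%. Spp1-high cells (Spp1, Gpnmb, Fabp5, Lgals3) numbered 27 and 14, border macrophages (Mrc1, Pf4, Cd163, F13a1, Lyve1, Cbr2) 27 and 36, and Müller glia (Rlbp1, Dkk3, Aqp4, Car14, Slc1a3, Clu) 41 and 52. All 6 Müller markers were detected in both libraries, although a CD45 sort should leave these cells out. Of the Spp1-high cells, 22 of 27 and 13 of 14 also met the microglia minimum, as did 26 of 27 and 36 of 36 border macrophages. Lyve1 was at 0 in the border macrophages of the library labelled knockout. Spp1-high cells were deep, with medians of 9165 and 11027 UMIs, against 4254 and 3920.5 UMIs in microglia, and a gate of at least 10 counts favours deep cells. Levels below are CPM, the counts of a gene in a class scaled to the total counts of that class sum.

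In microglia, Gapdh was the most abundant member by CPM. It had 690.2 CPM in the library labelled knockout and 613 CPM in the library labelled wildtype, and ranked 193rd of 15621 and 214th of 16002 detected genes. Aldoa had 303 and 273 CPM, Hk2 279 and 262 CPM, Pkm 208 and 193 CPM, and Ldha 201 and 205 CPM. Pfkfb3 had 115 and 181 CPM and Hif1a 106 and 128 CPM. Bnip3, Slc2a1 and Slc2a3 were the lowest: Bnip3 had 19.8 and 30.7 CPM, Slc2a1 22.8 and 17.2 CPM, and Slc2a3 5.7 and 5.53 CPM. On this scale of UMIs Hk2, the hexokinase of the set, stood far above the transporter Slc2a1 in microglia of both libraries. A higher level than that of Slc2a1 or Slc2a3 was held by Slc2a5 (GLUT5), known as a fructose transporter and a microglial gene, at 237 CPM in the library labelled knockout and 184 CPM in the library labelled wildtype.

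**Figure D1:**
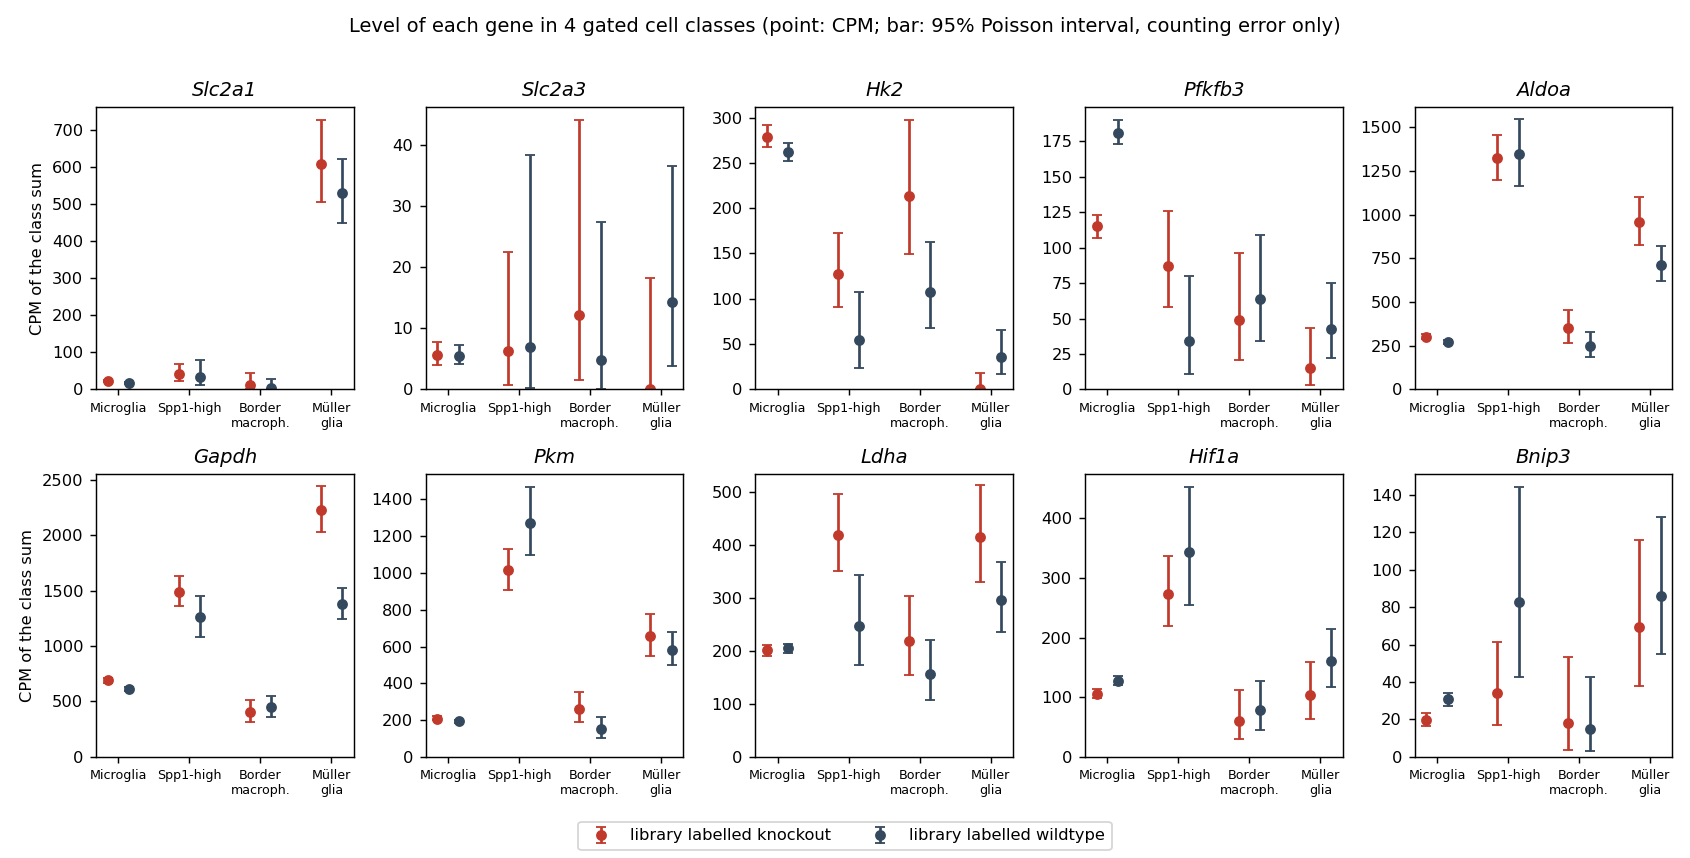
Level of each of the 10 genes (y axis, CPM of the class sum, own scale per gene) in 4 gated classes (x axis), with the library labelled knockout left of the library labelled wildtype and bars for 95% Poisson intervals. Slc2a1 stands highest in Müller glia (608 and 529 CPM), Hk2 and Pfkfb3 stand highest in microglia, and Aldoa and Pkm in Spp1-high cells. In the library labelled knockout the intervals of Hk2 in border macrophages and of Pfkfb3 in Spp1-high cells overlap those of microglia.

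The comparison between libraries in microglia asked whether the members differed under the knockout label. Of the 9 members with at least 20 CPM in 1 library, 0 were at least 1.5-fold higher in the library labelled knockout, against 0.675% of all 6226 genes at that level, and 2 were at least 1.5-fold lower, against 0.691%. The lower 2 were Pfkfb3 and Bnip3. Bnip3 met the 20 CPM level only in the library labelled wildtype, where it was higher (19.8 and 30.7 CPM). Pfkfb3 had 765 counts in the library labelled knockout and 1804 in the library labelled wildtype, a ratio of 0.632 (interval 0.58 to 0.688). Bnip3 had 132 and 305 counts, a ratio of 0.645 (interval 0.522 to 0.794). Both were hypoxia-induced members, but as a group these were split: Slc2a1 was 1.32-fold higher (interval 1.06 to 1.66), Hk2 1.07-fold, Ldha had a ratio of 0.98 (interval 0.914 to 1.05) and Slc2a3 a ratio of 1.03 with an interval of 0.662 to 1.59 from 38 and 55 counts. The median log2 ratio of the 5 hypoxia-induced members at 20 CPM was -0.03, the same as the -0.03 of all genes at that level. Slc2a1 entered this median only through the library labelled knockout, where it was higher (22.8 and 17.2 CPM). All genes were admitted by the same rule.

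The 3 constitutive enzymes were all slightly higher under the knockout label, with a median log2 ratio of 0.15. Gapdh had a ratio of 1.13 (interval 1.08 to 1.17), Aldoa 1.11 (interval 1.05 to 1.18) and Pkm 1.08 (interval 1.01 to 1.16). Pkm was lower instead, at log2 -0.05, when every cell was thinned to 1000 UMIs, at -0.02 with equal weight per cell, and at -0.22 without microglia high in immediate early genes. Hif1a was lower, with a ratio of 0.833 (interval 0.758 to 0.913). Without microglia high in immediate early genes, Hif1a was nearly level, with 99.9 and 102 CPM, a log2 ratio of -0.04. The intervals of Aldoa, Gapdh and Hif1a did not hold 1, but all 3 stood under 1.5-fold.

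**Figure D2:**
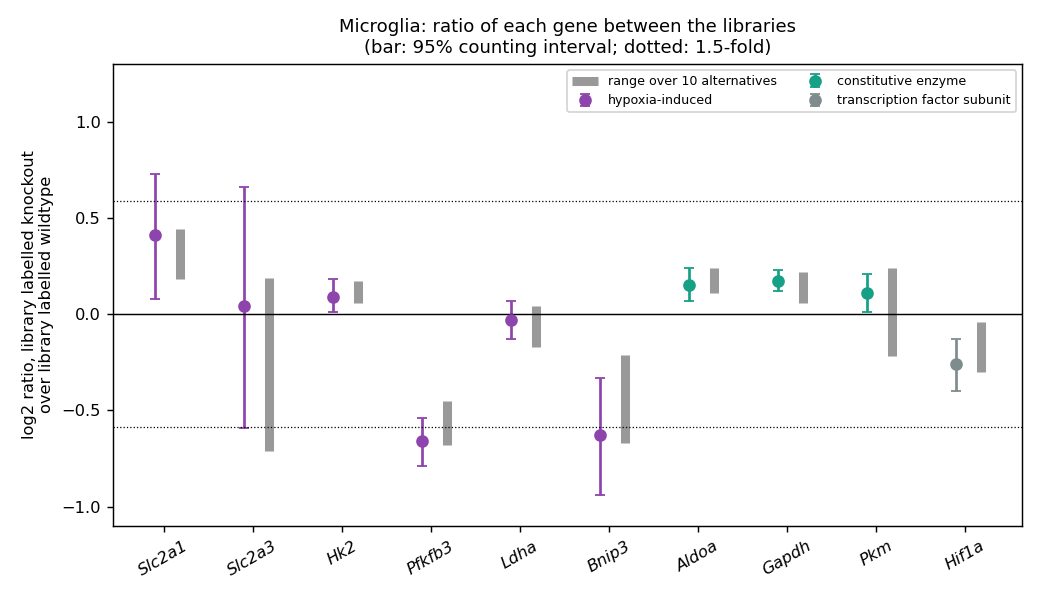
log2 ratio, knockout-labelled over wildtype-labelled library, in microglia (y axis) for each gene (x axis); points and bars give the ratio and its 95% counting interval, grey bars the range over 10 alternatives, and dotted lines 1.5-fold. Pfkfb3 (-0.66) and Bnip3 (-0.63) lie past the lower line, while the other 8 genes lie between the lines.

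The call of Pfkfb3 held under 9 of 10 alternatives, and that of Bnip3 under 8. Without the microglia holding at least 10 counts of immediate early and heat shock genes (Fos, Jun, Egr1, Atf3, Hspa1a, Hspa1b), the log2 ratios were -0.45 for Pfkfb3 and -0.21 for Bnip3, short of 1.5-fold. Without microglia holding any count of a Müller glia or endothelial gate gene, Bnip3 was at -0.50. Counts of these Müller markers summed to 70.9 CPM in microglia of the library labelled knockout and 79.4 CPM in those of the library labelled wildtype, with 5 of 6 and 6 of 6 genes detected, and their part in the Bnip3 value was not tested. Summed immediate early and heat shock counts were 10327 and 10732 CPM in microglia, and their part in the Pfkfb3 value was not tested either.

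Of the other lists, 0 genes passed 1.5-fold in either direction in microglia at 20 CPM: 0 of 12 other glycolysis and transport genes, 0 of 8 other hypoxia-induced genes and 0 of 3 HIF control genes. With 0.675% of all genes higher and 0.691% lower, a count of 0 in lists this short is near the background. Ldhb, the lactate dehydrogenase B subunit and the most abundant of the first list, had 419 and 465 CPM. Bnip3l, a mitophagy receptor related to Bnip3, had 148 and 155 CPM, a ratio of 0.956 (interval 0.881 to 1.04). Vhl, which marks HIF subunits for degradation, had 47.7 and 55.3 CPM. Adm, a hypoxia-induced peptide hormone gene below the 20 CPM level, had 9 counts in the library labelled knockout and 50 in the library labelled wildtype. Epas1, which encodes the related factor HIF-2α, had 1 and 4 counts in microglia.

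The share of microglia with a count of each member was compared between libraries. After thinning to 1000 UMIs, Hk2 was counted in 23% of 1517 microglia of the library labelled knockout and in 20.3% of 2418 of the library labelled wildtype; unthinned, the shares were 58.2% and 54.4%. Thinned shares were 47.9% and 43.6% for Gapdh and 26.4% and 23.1% for Aldoa. For Pkm they were 16% and 17%, the other way round from its levels. Ldha was counted in 15.2% and 18.2% and Hif1a in 9.23% and 10.7% of thinned microglia. For Pfkfb3 they were 10.8% (interval 9.29 to 12.5) and 15.9% (interval 14.4 to 17.4), or 33% and 40.5% unthinned. Slc2a1 was counted in 1.78% and 1.53% of thinned microglia, Bnip3 in 1.85% and 2.77%, and Slc2a3 in 0.33% and 0.496%, also the other way round from its levels. As a yardstick of free RNA, the Müller glia gene Rlbp1 had a count in 0.132% of thinned microglia of the library labelled knockout (interval 0.016 to 0.475). In the library labelled wildtype its share was 0.0414% (interval 0.00105 to 0.23), and the unthinned shares were 0.259% and 0.162%. Rlbp1 is also a gene of the Müller gate, which takes cells rich in it out of microglia. In the library labelled knockout the interval of Slc2a3 (0.107 to 0.767) overlapped that of Rlbp1, and the other members named here lay above it in both libraries.

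Immediate early genes, which tissue digestion is known to raise, were used to order microglia by their share of each cell's counts. In the microglia above the median share of their library, Hk2 was 1.27-fold higher than in those below it in both libraries. Pfkfb3 was 1.39-fold higher in the library labelled knockout and 1.18-fold in the library labelled wildtype. The constitutive enzymes went the other way: Aldoa had ratios of 0.767 and 0.833, Gapdh 0.79 and 0.824, and Pkm 0.848 and 0.749. Ldha (0.961 and 0.919) stood closer to 1. No member was 1.5-fold apart in both libraries, where 1.57% of 6043 genes were higher and 0.215% lower. A subset cut by raw counts of the same genes (at least 10, in 1071 and 1829 cells) had Hk2 1.81-fold and 1.85-fold and Pfkfb3 1.97-fold and 2.25-fold above the other microglia, where 28.3% of 6041 genes were at least 1.5-fold higher in both libraries and 3.06% lower, and its cells were far deeper (medians of 4862 and 4403 UMIs, against 1920.0 and 1589). The cells above the median share were also deeper, with medians of 4778 and 4245 UMIs, against 3164 and 3269.5 below it. Under the knockout label Pfkfb3 was lower on both sides of the split, with ratios over the wildtype label of 0.67 above and 0.567 below the median, as was Bnip3 (0.66 and 0.626).

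**Figure D3:**
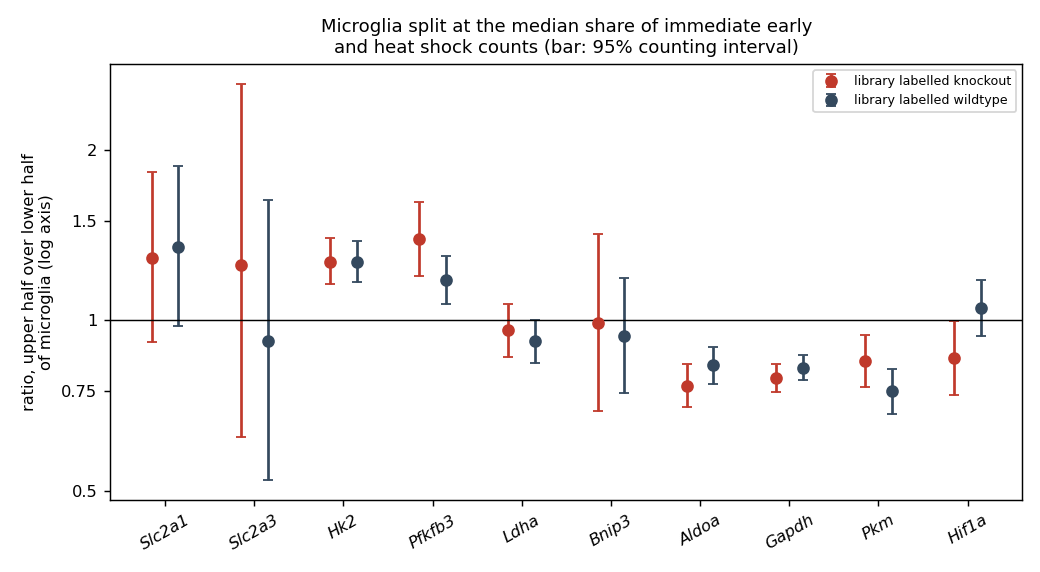
Ratio of each gene in microglia above over below the median share of immediate early and heat shock counts (y axis, log scale), by gene (x axis) and library, with 95% counting intervals. Hk2 and Pfkfb3 lie above 1, and Aldoa, Gapdh and Pkm below 1, in both libraries.

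Proliferating microglia (Mki67, Top2a, Cenpf, Birc5) were 22 in the library labelled knockout and 33 in the library labelled wildtype. Their medians were 3589.5 and 7198 UMIs, against 4258 and 3907 UMIs in the other microglia. Gapdh was 1.99-fold and 1.92-fold higher in proliferating microglia than in the others, and Pkm 1.61-fold and 2.08-fold. These were the only 2 of the 10 members at least 1.5-fold higher in both libraries, where 13.1% of 6503 genes were, and 0 were lower in both, where 3.41% were. Aldoa was not: it had ratios of 0.905 and 0.425. In interferon-marked microglia (Ifit1, Ifit2, Ifit3, Rsad2, Isg15), Ldha was 1.32-fold and 1.31-fold higher, under the 1.5-fold that 2.85% of 6109 genes passed upwards and 0.246% downwards in both libraries. Chemokine-marked microglia (Ccl2, Ccl3, Ccl4) had ratios from 0.699 to 1.5 over the other microglia across the members and both libraries, and 0 members passed 1.5-fold in both, where 0.648% of 6021 genes were higher and 0.0166% lower.

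Spp1-high cells, a state that carries the markers Spp1, Gpnmb, Fabp5 and Lgals3, had several glycolytic enzymes well above microglia. Pkm had 1016 CPM in Spp1-high cells of the library labelled knockout, against 208 CPM in its microglia, and 1272 against 193 CPM in the library labelled wildtype. Its ratios were 4.88 and 6.6. Aldoa had 1323 and 1348 CPM in Spp1-high cells, ratios of 4.37 and 4.94, and Gapdh 1488 and 1258 CPM, ratios of 2.16 and 2.05. Hif1a was 2.57-fold and 2.69-fold higher, with 273 and 344 CPM. Of 9 members at 20 CPM, 6 were at least 1.5-fold higher in both libraries (Slc2a1, Aldoa, Gapdh, Pkm, Hif1a, Bnip3), where 9.87% of 6202 genes were. For Slc2a1 (13 and 5 counts) and for Bnip3 of the library labelled knockout (11 counts), the interval held 1.

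Hk2 went the other way and was the only member at least 1.5-fold lower in both libraries, where 19.5% of genes were. It had 127 CPM in Spp1-high cells of the library labelled knockout, against 279 CPM in microglia, and 55 against 262 CPM in the library labelled wildtype. Pfkfb3 was 0.759-fold and 0.189-fold the microglial level, and 12 of its 28 counts in the library labelled knockout came from 1 cell. Ldha had ratios of 2.09 and 1.21, and that of the library labelled wildtype turned to log2 -0.51 when cells were thinned. Thinned to 1000 UMIs, the Gapdh ratio in the library labelled knockout was 0.51 on the log2 scale, short of 1.5-fold. The largest single cell held 15.5% and 21.9% of the Aldoa counts of the class and 19.6% and 27.6% of the Pkm counts.

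Other genes of the pathway in Spp1-high cells also lay on both sides of microglia. Of 13 other glycolysis and transport genes at 20 CPM, 6 were higher in both libraries (Slc2a6, Pfkl, Tpi1, Pgk1, Pgam1, Eno1) and 2 lower (Slc2a5, Ldhb), beside 9.87% and 19.5% of all genes. The interval held 1 for Slc2a6 in both libraries (9 and 4 counts) and for Pfkl in the library labelled wildtype (15 counts). Pgam1, the phosphoglycerate mutase, had ratios of 4.31 and 2.68, and Pgk1, the phosphoglycerate kinase, 3.1 and 3.72. Slc2a5 had 1 and 2 counts in Spp1-high cells, ratios of 0.0131 (interval 0.000332 to 0.0733) and 0.0748 (interval 0.00905 to 0.271). Of 9 other hypoxia-induced genes, 2 were higher (Bnip3l and Bhlhe40) and 2 lower (Pdk1 and Mxi1), in both libraries, a count of lower genes near the share of all genes. For Mxi1 in both libraries (7 and 2 counts) and Bhlhe40 in the library labelled wildtype (3 counts), the interval held 1.

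Between libraries, 3 of 9 members in Spp1-high cells were at least 1.5-fold higher under the knockout label (Hk2, Pfkfb3, Ldha) and 1 lower (Bnip3), where 14.7% and 24.8% of 6195 genes were. Hk2 had 127 and 55 CPM, a ratio of 2.32 (interval 1.07 to 5.72). Ldha had 419 and 248 CPM, a ratio of 1.69 (interval 1.17 to 2.52), and the other called intervals held 1. The gate genes differed between the libraries in these cells. Spp1 had 2085 CPM in the library labelled knockout and 385 CPM in the library labelled wildtype, Gpnmb 892 and 234 CPM, Fabp5 3209 and 1506 CPM, and Lgals3 3225 and 3252 CPM. The microglial gene P2ry12 had 62.1 and 199 CPM. The part of this difference in the members' values was not tested. With 27 and 14 cells these shares of all genes are high, and the members' counts are read against them.

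Border macrophages line vessels and the edges of the tissue. Of 7 members at 20 CPM, 0 were at least 1.5-fold higher in both libraries, where 5.35% of 6114 genes were, and 2 were lower (Pfkfb3 and Hif1a), where 14.8% were. Pfkfb3 had 48.7 CPM in border macrophages of the library labelled knockout, against 115 CPM in microglia, and 63.6 against 181 CPM in the library labelled wildtype, from 8 and 13 counts. When cells were thinned, the Pfkfb3 ratio in the library labelled knockout turned to log2 0.36. Hif1a had 60.9 and 78.3 CPM, ratios of 0.573 (interval 0.274 to 1.06) and 0.613 (interval 0.35 to 1), from 10 and 16 counts. Gapdh had 402 and 450.3 CPM, ratios of 0.583 and 0.735. Hk2 stood at 0.763 of the microglial level in the library labelled knockout (interval 0.53 to 1.07) and at 0.411 in the library labelled wildtype (interval 0.257 to 0.623). Aldoa (1.17 and 0.916), Pkm (1.26 and 0.788) and Ldha (1.09 and 0.765) lay on different sides of 1 in the 2 libraries. Between libraries, 2 of the 7 were at least 1.5-fold higher under the knockout label (Hk2, 213 and 108 CPM, and Pkm, 262 and 152 CPM), where 24.7% of 6104 genes were, and 0 were lower, where 18.3% were.

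Müller glia, the radial glia that span the retina, had far more Slc2a1 than microglia. It had 608 CPM (interval 505 to 725) in Müller glia of the library labelled knockout, against 22.8 CPM in its microglia, and 529 CPM (interval 447 to 621) against 17.2 CPM in the library labelled wildtype. The ratios were 26.7 and 30.8. Müller glia were 2.33% and 1.93% of cells but held 36.9% and 38% of all Slc2a1 counts in kept cells, while microglia held 45.6% and 44%. Slc2a1 was counted in 31 of 41 and 46 of 52 Müller glia, or in 39.4% of 33 and 36% of 50 after thinning to 1000 UMIs, with no cell holding over 8.13% and 8.11% of the counts. Endothelial cells, which carry GLUT1 at the blood-retina barrier, were only 4 and 3 cells but held 31 and 29 Slc2a1 counts. Their levels were 752 and 1738 CPM, but in the library labelled knockout the interval (511 to 1067) overlapped that of Müller glia. In those 4 cells the Spp1-high gate genes summed to 12299 CPM, against 7302 CPM of the endothelial gate genes, and 1 cell also met the Spp1-high minimum. Pecam1 and Flt1 summed to 126 and 145 counts in the Müller gate, while Cldn5 and Ly6c1 were at 0 there, and the part of endothelial RNA in the Slc2a1 value was not tested.

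Hk2 was the reverse of Slc2a1. It had 0 counts in 202313 UMIs of Müller glia in the library labelled knockout, at least 18.8-fold lower than the 279 CPM of its microglia by the floor of 3 counts. It was counted in 0 of 41 cells, which by the same floor allows a share of up to 7.32% of cells with a count and sets no limit on cells that express it. In the library labelled wildtype it had 10 counts (35.7 CPM), against 262 CPM in microglia. The microglial gene P2ry12 had 1 count in Müller glia of the library labelled knockout and 64 in those of the library labelled wildtype. Per P2ry12 count there were 0.156 Hk2 counts in Müller glia of the library labelled wildtype, and 0.156 in its microglia. But 37 of these Müller glia had no count of 5 microglia genes and still held 3 of the Hk2 counts. In the other 15 there were 0.109 Hk2 counts per P2ry12 count. The part of microglial RNA in the Hk2 value was not tested. Microglia were 87.7% and 91.4% of kept cells and held 93.9% and 96.8% of all Hk2 counts in them. Hk1, the hexokinase of most tissues, had 69.2 and 28.6 CPM in Müller glia, against 9.29 and 11.2 CPM in microglia. Pfkfb3 had 3 and 12 counts in Müller glia, ratios of 0.129 and 0.236.

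**Figure D4:**
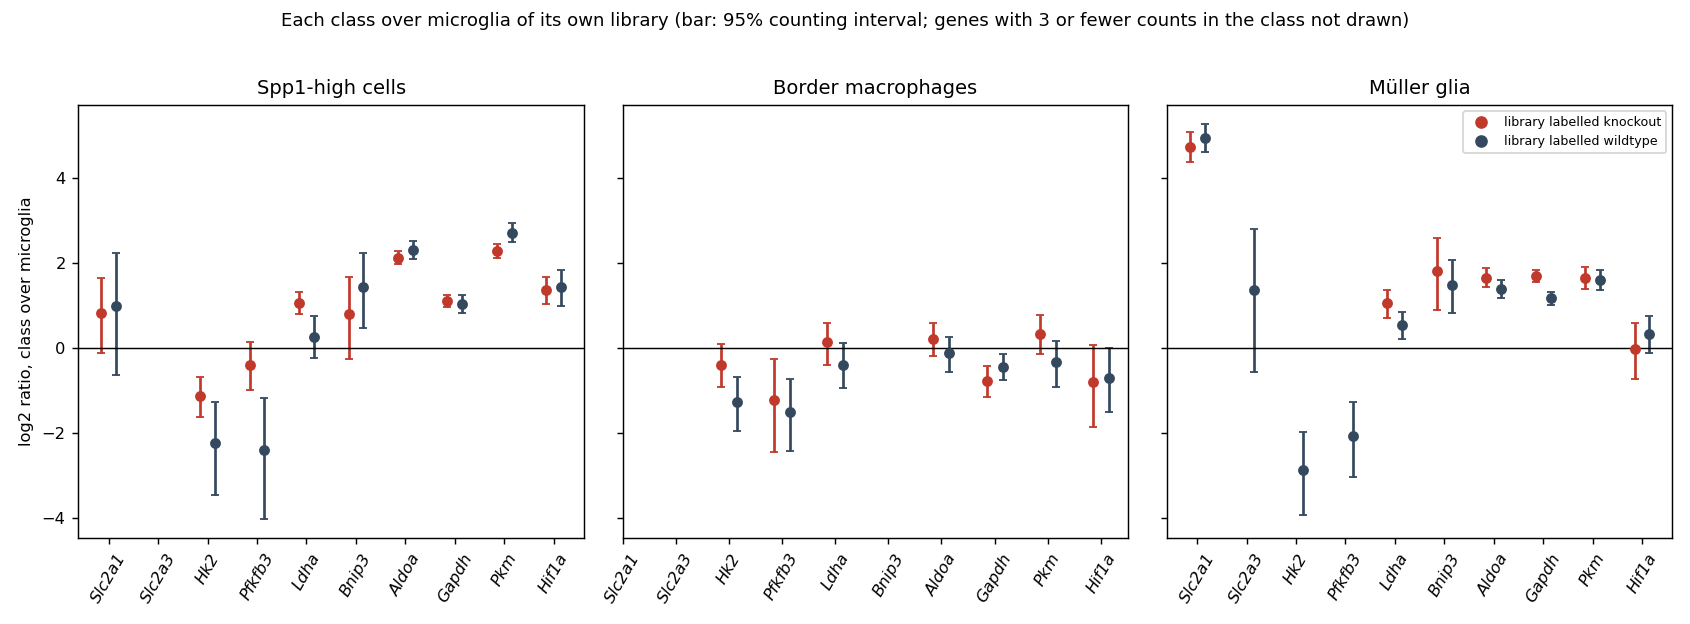
log2 ratio of each class over microglia of the same library (y axis) by gene (x axis), one panel per class, with 95% counting intervals; genes with 3 or fewer counts in the class are not drawn. Slc2a1 in Müller glia lies highest, Aldoa and Pkm lie above 0 in Spp1-high cells and Müller glia, and Hk2 lies below 0 wherever it is drawn.

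The downstream enzymes were higher in Müller glia. Gapdh had 2229 and 1376 CPM (ratios 3.23 and 2.25), Aldoa 959 and 715 CPM (3.17 and 2.62) and Pkm 657 and 583 CPM (3.16 and 3.02). Bnip3 had 69.2 and 85.8 CPM, ratios of 3.5 and 2.8. Of 9 members at 20 CPM, 5 were at least 1.5-fold higher in both libraries (Slc2a1, Aldoa, Gapdh, Pkm, Bnip3), where 34.8% of 7670 genes were, and 2 were lower (Hk2 and Pfkfb3), where 21.5% were. Ldha had 415 and 297 CPM (2.07 and 1.45), and 34 of its 84 counts in the library labelled knockout came from 1 cell. In Müller glia with no count of 5 microglia genes, Ldha had 286 and 303 CPM. Hif1a stood near microglia, with 104 and 161 CPM (0.977 and 1.26).

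The other glycolysis and hypoxia genes were read against the 34.8% of all genes higher and 21.5% lower in Müller glia. Of 16 other glycolysis and transport genes, 10 were higher in both libraries and 3 lower. Eno1, an enolase, had 4098 and 3914 CPM, against 165 CPM in microglia of both libraries. Pfkp, the platelet-type phosphofructokinase, had 297 and 222 CPM, against 3.45 and 2.31 CPM, and Slc16a1, the lactate and pyruvate transporter MCT1, 311 and 214 CPM, against 6.45 and 7.95 CPM. Slc16a3, the transporter MCT4, was 0 in the library labelled knockout and 7.15 CPM in the library labelled wildtype. Of 12 other hypoxia-induced genes, 9 were higher and 1, Pdk1, was lower. Vegfa, the vascular growth factor, had 806 and 425 CPM, against 0.45 and 0.604 CPM in microglia, and Epas1 had 415 and 139 CPM, against 0.15 and 0.402 CPM.

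Between libraries, Gapdh in Müller glia had a ratio of 1.62 (interval 1.41 to 1.86) and was the 1 of 9 members at least 1.5-fold higher under the knockout label, where 17.8% of 8014 genes were. Lower were 3 members, where 20.8% of genes were. These were Hk2, Pfkfb3 and Hif1a, and the part of microglial RNA in these values and in that of Gapdh was not tested. In Müller glia with no count of the 5 microglia genes, Gapdh had 2266 and 1517 CPM, just short of 1.5-fold. Pfkfb3 had 3 and 12 counts, a ratio of 0.346 (interval 0.0626 to 1.28), and in Müller glia with no count of the 5 microglia genes it had 2 and 3 counts. Hif1a had 104 and 161 CPM, a ratio of 0.645 (interval 0.365 to 1.11), and 81.8 and 193 CPM in the Müller glia without those genes. Slc2a1 (1.15, interval 0.897 to 1.47) and Pkm (1.13, interval 0.891 to 1.43) had intervals that held 1.

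Outside these 4 classes, rods and bipolar cells (19 and 29 cells) had the most Aldoa, at 2665 and 3042 CPM, Gapdh, at 2994 and 3303 CPM, and Pkm, at 1751 and 2180.3 CPM. Ldha was 629 and 807 CPM there and Hif1a 374 and 479.7 CPM. Slc2a3 was highest by CPM in neutrophils and monocytes, at 57.9 and 201 CPM, from 9 and 22 counts. Slc2a1 had 26 counts in the neutrophils and monocytes of the library labelled wildtype, but 23 of them were in 1 cell.

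Likeness of pattern was measured by Pearson's r over the 8 class-by-library sums, which share libraries and cell numbers, among 3211 genes at 50 CPM or more in microglia. Closest to Hk2 was Inpp5d, a lipid phosphatase of blood cells (r = 0.992), followed by Nfatc1 and Mknk1. Aldoa and Pkm were closest to each other (r = 0.993). Closest to Gapdh were Anapc11 (r = 0.974), Bnip3l (r = 0.973) and Pgk1 (r = 0.971).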

How the data were processed

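Counts of UMIs per gene and barcode were deposited by the authors as 1 table per library, with no normalization, per the file headers and the values. The submitters' processing notes name the mm10 build and Cell Ranger 3.1. Other upstream steps are not given in the sources used here. The members and gene lists were chosen with earlier results of these data known.

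Filters of at least 500 UMIs, at least 250 genes and no more than 15% mitochondrial counts removed 24 barcodes of the library labelled knockout and 40 of the library labelled wildtype. No doublet caller was applied, and cells that met 2 gates are counted above. Each cell took the first gate it passed, in the order Müller glia, lymphocytes, neutrophils and monocytes, rods and bipolar cells, endothelial cells, Spp1-high cells, border macrophages and microglia, at 3 to 10 counts over at least 2 genes. Müller glia and rods or bipolar cells also had to exceed the counts of 5 microglia genes. One gene of the microglia gate and the gene first chosen as a yardstick of free RNA are not reported here; Rlbp1 was taken in place of the second after its values were seen. Raw counts were summed per class and library. Intervals were exact Poisson for a level, exact Clopper-Pearson for a share and the exact split of counts for a ratio. A difference was counted at 1.5-fold and at least 20 CPM in 1 library. Named genes were all members and, of the lists, those past 1.5-fold and the most abundant; Adm, Slc2a5 and Epas1 in microglia were named after their values were seen. Zero counts used a floor of 3 counts. The intervals were tested on simulated counts drawn with the counting error that they assume. Clumping of counts in single cells was not part of that test.

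Aldoa has 2 rows in the tables; the row named Aldoa held 2021 and 2710 microglial counts and the other 1 and 1, and only the first was used. Gapdh has many processed copies in the genome, so its counts may be split. Whether counting used strand is not given. Sequences came from RefSeq and exons from GENCODE (GRCm38). Python 3.11.15, NumPy 2.4.6, SciPy 1.17.1 and pandas 2.3.3 were used.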

Additional observations from a re-analysis of the deposited data

Results flagged for a closer look

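Pkm stood out because its ratio, knockout-labelled over wildtype-labelled library, lay on different sides of 1 in different classes, with intervals that did not hold 1. It was 0.799 (interval 0.665 to 0.962) in Spp1-high cells, 1.08 (interval 1.01 to 1.16) in microglia and 1.73 (interval 1.06 to 2.83) in border macrophages. The differences between classes were not tested, since each class has 1 library per group. The Spp1-high value rests on 27 and 14 cells, of which 1 cell in each library held 19.6% and 27.6% of the counts, and the microglial value turned to log2 -0.05 when cells were thinned.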

How the results depend on the processing

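No paired analysis was possible because there was 1 library per group, and no replicate could be left out. Across 10 alternatives, Hk2, Slc2a1, Aldoa and Gapdh stayed above 0 on the log2 scale in microglia, and Hif1a, Pfkfb3 and Bnip3 below it; Ldha, Pkm and Slc2a3 took both signs (-0.17 to 0.04, -0.22 to 0.24 and -0.71 to 0.19). The count of lower members, 2, was 0 without microglia high in immediate early genes, 0 at 2-fold and 1 without microglia holding Müller glia or endothelial genes, an alternative chosen after seeing the data. The median log2 ratio of the hypoxia-induced members, -0.03, was -0.39 with thinned cells and -0.38 without chemokine-high microglia. It was -0.19 without immediate early-high microglia and -0.27 with Ldha among the constitutive enzymes. With thinned cells, Slc2a1 stood at 18.5 and 15.3 CPM, under the CPM level set for a difference, and left the median. It also left without chemokine-high microglia (19.4 and 16.5 CPM) and without immediate early-high microglia (15.9 and 11.8 CPM). The log2 ratios of Slc2a1, in that order, were 0.27, 0.23 and 0.43, so these medians lack a higher member. Medians with Slc2a1 kept were not computed. The median log2 ratio of the constitutive enzymes, 0.15, was 0.24 by microglia markers alone and 0.06 without immediate early-high microglia. Border macrophage Pfkfb3 over microglia in the library labelled knockout, at log2 -1.23, was 0.36 with thinned cells; the cause was not tested. Of the other values of a class over microglia, 125 stayed within their interval and 31 moved past it, among them Ldha in Spp1-high cells of the library labelled wildtype (log2 0.27, and -0.51 thinned) and in border macrophages of the library labelled knockout (0.13, and -0.70 thinned). Depth limits Slc2a3 in every class and all members in classes of 14 to 52 cells. Müller glia without microglia genes, and the split of microglia by immediate early share, were also chosen after seeing the data.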
